A study of Mus musculus with 208 samples.

Results

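Untreated left ventricles (LV) of inbred mouse strains that differed in the level of Mylpf were compared. Mylpf encodes the regulatory myosin light chain of fast skeletal muscle. The log2 values of the untreated arrays were averaged per strain and the 93 strains were ranked by the only Mylpf probe of the array, ILMN_2977331. The 31 highest strains (39 arrays, below called high) were set against the 31 lowest (31 arrays, low), together 70 of the 208 arrays of the series, so the groups were chosen by their measured Mylpf level. The 31 strains between them (36 arrays, middle) were left out.

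The arrays came from the Hybrid Mouse Diversity Panel (HMDP), a set of classical inbred and recombinant inbred (RI) strains. Each array held LV RNA pooled from female mice of a strain, hybridized to an Illumina MouseRef-8 v2.0 BeadChip, a slide that carries 8 arrays. The labels give the tissue as 10 wks old. Control mice stayed untreated for 3 weeks from 8-9 weeks of age, and ISO mice received isoproterenol, a beta-adrenergic agonist, over the same time at a labelled 30 ug/g body weight/day, whereas the design text gives 20. No transgene was involved, and the high and low strains differed in genotype, that is, in strain, with no treatment in either. The high strains held 9 BXD/RwwJ, 8 BXD/TyJ, 4 CXB, 3 AXB/BXA and 3 BXH RI strains and 4 classical strains, and the low strains held 10 BXD/RwwJ, 1 BXD/TyJ, 2 CXB and 6 AXB/BXA RI strains and 12 classical strains. A strain was the unit of each test, and 13 strains had 2 control arrays.

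Heart and skeletal muscle build their sarcomeres from related proteins that come from different genes. In fast skeletal fibers the regulatory light chain is Mylpf, the calcium-binding troponin is Tnnc2, the inhibitory and tropomyosin-binding troponins are Tnni2 and Tnnt3, the calcium pump of the sarcoplasmic reticulum is Atp2a1, and Pvalb buffers calcium in the cytosol. The ventricle uses other members of these families, such as the light chain Myl2 and the heavy chain Myh6. Fast skeletal transcripts in a ventricular sample bear on what the sample contained.

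The promoters of 5 genes on which the results below turn are shown: Mylpf, Tnnc2, Atp2a1 and Pvalb because they were high together in 6 strains, and Tpt1 because it led the called genes and was not high in 5 of those 6. They are RefSeq sequences of build GRCm38.p6 that end at the base before the annotated start of the gene. Capitals mark matches to CANNTG (the E-box bound by myogenic factors of the MyoD family), CATTCC (the core of the MCAT element) and the MEF2 and CArG elements, searched on both strands.
Mylpf, chr7:127211358-127211607, plus strand: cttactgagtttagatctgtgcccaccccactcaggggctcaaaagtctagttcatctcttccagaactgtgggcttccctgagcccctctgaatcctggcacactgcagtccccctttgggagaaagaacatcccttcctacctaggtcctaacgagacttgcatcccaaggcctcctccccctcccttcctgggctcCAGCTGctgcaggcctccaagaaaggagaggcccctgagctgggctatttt
Tnnc2, chr2:164779735-164779984, minus strand: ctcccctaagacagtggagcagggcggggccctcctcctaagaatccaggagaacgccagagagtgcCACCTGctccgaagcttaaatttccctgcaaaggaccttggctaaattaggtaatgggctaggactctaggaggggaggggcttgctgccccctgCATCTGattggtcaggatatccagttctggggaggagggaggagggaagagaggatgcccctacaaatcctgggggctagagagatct
Atp2a1, chr7:126463074-126463323, minus strand: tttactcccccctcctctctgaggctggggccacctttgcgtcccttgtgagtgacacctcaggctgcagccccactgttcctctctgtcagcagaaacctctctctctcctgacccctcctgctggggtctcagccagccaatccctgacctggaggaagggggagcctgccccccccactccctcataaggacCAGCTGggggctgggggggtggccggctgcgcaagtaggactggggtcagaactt
Pvalb, chr15:78206401-78206650, minus strand: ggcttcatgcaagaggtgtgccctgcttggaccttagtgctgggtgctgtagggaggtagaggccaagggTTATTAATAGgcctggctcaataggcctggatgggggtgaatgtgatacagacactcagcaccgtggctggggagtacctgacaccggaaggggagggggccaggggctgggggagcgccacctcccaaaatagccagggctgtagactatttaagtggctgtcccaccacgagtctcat
Tpt1, chr14:75845006-75845255, plus strand: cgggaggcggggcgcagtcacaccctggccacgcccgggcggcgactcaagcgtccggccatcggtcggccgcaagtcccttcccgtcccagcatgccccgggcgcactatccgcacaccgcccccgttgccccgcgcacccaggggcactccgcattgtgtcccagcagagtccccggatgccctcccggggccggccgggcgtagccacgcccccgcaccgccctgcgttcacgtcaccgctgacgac
The CANNTG match of Mylpf and that of Atp2a1 read CAGCTG and began 51 and 55 bases before the start. Tnnc2 held 2 matches to CANNTG, Pvalb held 1 to MEF2, and Tpt1 held none of the 4 motifs. Of the 32851 promoter windows of this length, 66.2% held CANNTG, 12.6% CATTCC, 2.92% MEF2 and 1.47% CArG. A match describes the letters only. RefSeq lists 2 starts for Pvalb, and the promoter of 1 of them is shown.

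Mylpf was at 4.64 in AXB-4/PgnJ, the lowest control strain, and at 9.64 in BXD-5/TyJ, the highest (log2 values, on which 1 unit is a doubling of the normalized signal). High strains ran from 7.02 through a median of 7.77 to 9.64, and low strains from 4.64 through a median of 5.85 to 6.07. The means were 7.83 ± 0.70 (SD, n = 31) and 5.66 ± 0.40 (SD, n = 31). These values chose the strains and carry no test. At the edges, BXA-7/PgnJ was the highest low strain at 6.07 and NON/LtJ the lowest middle strain at 6.07, while BXA24/PgnJ was the highest middle strain at 6.99 and DBA/2J the lowest high strain at 7.02. The order had no gap at either edge. The probe was detected (detection p-value under 0.05) on all 39 high arrays and on 25 of the 31 low arrays.

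**Figure D1:**
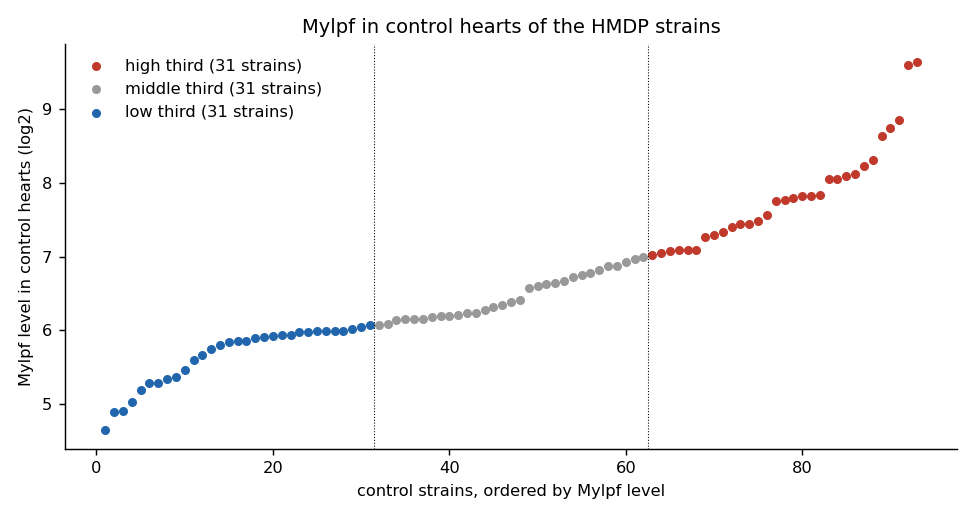
Mylpf level (log2) of each of the 93 control strains, ordered from lowest to highest. Points are strain means, colors are the high, middle and low groups, and the dotted lines are their edges. The level climbed without a gap from 4.64 to 8.32 and then rose to 9.64 in 5 strains.

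Mylpf went with the BeadChip on which an array was run. The 26 BeadChips, numbered here by their slide numbers, fell into 3 sets of neighboring numbers (set 1 with BeadChips 1 to 6, set 2 with 7 to 20, set 3 with 21 to 26). The BeadChip accounted for 82.9% of the variance of Mylpf among control arrays and 80.6% among ISO arrays, where the median over all probes was 41.6% and 37.6%. On 5 BeadChips (10, 12, 13, 15 and 19) the 24 control arrays were at 7.13 to 8.37, and 22 of these belonged to high strains and 2 to middle strains. On BeadChips 8, 14 and 20 every control array belonged to a low strain. Only 2 BeadChips held arrays of both high and low strains, 5 arrays in all, and apart from these BeadChip and Mylpf group cannot be told apart. Control arrays of different strains on the same BeadChip differed by a median of 0.31 (173 pairs), and those on different BeadChips by 1.0 (5379 pairs).

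**Figure D2:**
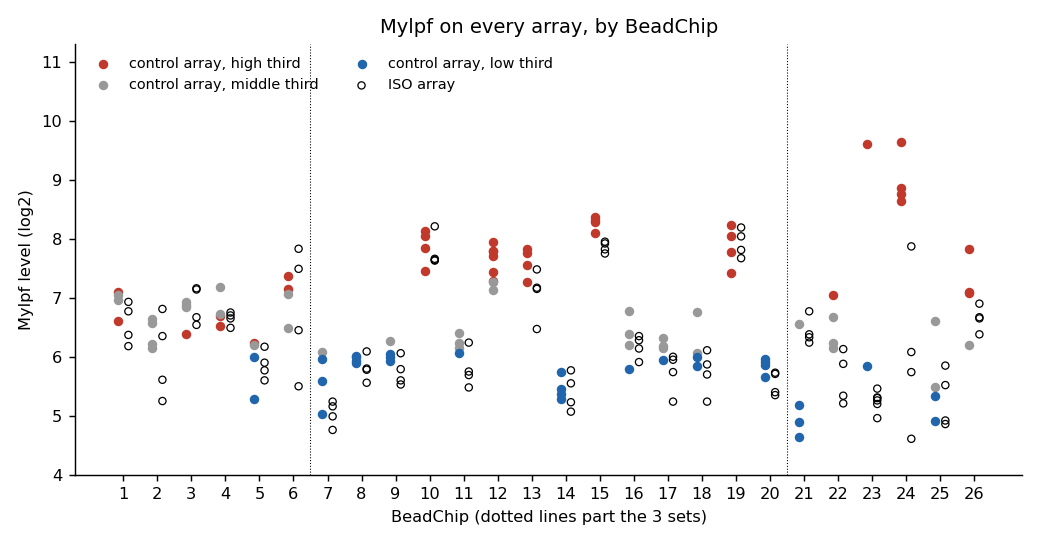
Mylpf level (log2) of every array of the series by BeadChip. Filled points are control arrays colored by the group of their strain, open circles are ISO arrays, and the dotted lines part the 3 sets of slide numbers. Arrays of BeadChips 10, 15 and 19 lie between 7.42 and 8.37 and those of BeadChips 8, 14 and 20 between 5.07 and 6.09, whereas BeadChips 6, 21 and 22 spread more widely and control arrays at 8.64 and above lie over the ISO arrays on BeadChips 23 and 24.

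The 13 strains with 2 control arrays had them on different BeadChips, and those 2 arrays differed by a median of 0.81. The 2 values of 129X1/SvJ were 6.23 on BeadChip 5 and 7.94 on BeadChip 12. Those of BXD32/TyJ were 6.52 on BeadChip 4 and 8.37 on BeadChip 15. Of the 10 strains with an array on BeadChip 12, 15 or 19, 9 had the higher value there. Of the 8 high strains with 2 arrays, 5 had an array below 7.02, the lowest mean of a high strain.

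Some fast skeletal transcripts, Tnnc2 among them, were far higher in 6 of the 31 high strains and near the level of the low strains in the other 25. Tnnc2 was at 9.79 in BXD-5/TyJ, 9.71 in BXD69/RwwJ, 9.29 in BXH-9/TyJ, 8.84 in BXH-6/TyJ, 8.54 in BXD-20/TyJ and 6.81 in CXBH. In the other 25 high strains it ran from 4.43 through a median of 4.75 to 5.38, and in the low strains from 4.43 through 4.67 to 5.54. No other control strain of the 87 was above 5.54. These 6 strains were singled out after their values were seen, so they carry no test. In bulk RNA, fewer cells of a type and less RNA per cell cannot be told apart.

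Atp2a1, Pvalb and 1 probe of Actn3 were high in the same strains. Atp2a1 was at 10.04, 9.53, 10.09, 9.95, 8.79 and 7.66 in these strains in the order above, against 6.81 at most in the other 87. Pvalb was at 10.87, 10.46, 9.72, 9.89, 9.69 and 7.92, against 7.68 at most. For both genes the 6 strains lay above every other control strain. Actn3, the alpha-actinin of fast fibers, was at 5.84 to 7.08 on probe ILMN_2747543, against 5.82 at most in the others, while its other 2 probes overlapped. Among the probes of all gene lists and named genes, those of Tnnc2, Atp2a1, Pvalb and Actn3 were the 4 for which all 6 strains lay above the other 87. On brightest probes this held for 1 of the 14 fast sarcomere genes measured. It held for 2 of the 11 genes of calcium handling and excitation and for 0 of the 15 of fast metabolism. The 6 strains were chosen by Tnnc2, so its own separation was fixed by that choice.

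Tnni2, Tnnt3 and Ampd1 were high in most of the 6 but overlapped the rest. Tnnt3 was at 7.60, 7.21, 8.28, 7.44 and 5.84 in the first 5 strains and at 4.73 in CXBH, and the highest of the other 87 was 5.33. Tnni2 ran from 7.17 to 9.56 in the 6 strains and reached 8.61 among the others. Ampd1, the AMP deaminase of skeletal muscle, was at 4.89 to 6.42 on probe ILMN_1237871, against 5.51 at most in the others. The fast myosin heavy chains did not stand apart: Myh4 was at 4.40 to 5.01 and Myh1 (ILMN_2740259) at 4.38 to 4.86 in the 6 strains, inside the range of the other strains. Myl2 was at 14.79 to 15.12 there and Myh6 at 14.68 to 14.90, against 14.86 to 15.22 and 14.73 to 15.09 in the low strains. Lgals3, a galectin of macrophages, was at 13.07 in BXD-5/TyJ and 10.98 in BXH-6/TyJ and at 7.5 to 9.38 in the other 4, where the other 25 high strains ran from 6.69 to 8.89 and the low strains from 5.39 to 12.28. Its part in the result was not tested.

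These 6 strains were run on BeadChips 23, 24 and 26. All 4 control arrays of BeadChip 24 were among them, with Mylpf at 8.64 to 9.64 and Tnnc2 at 8.54 to 9.79. The 4 ISO arrays of the same BeadChip, which came from the same 4 strains, had Mylpf at 4.61 to 7.87 and Tnnc2 at 4.41 to 7.33. The ISO array of BXH-9/TyJ was the highest of them, with Tnnc2 at 7.33, Atp2a1 at 7.98 and Pvalb at 8.63, and those of BXD-5/TyJ, BXH-6/TyJ and BXD-20/TyJ had Tnnc2 at 4.41, 5.10 and 4.85. The ISO array of CXBH had Tnnc2 at 4.78. Over the series, 8 arrays had Tnnc2 above 5.54, the 6 control arrays named and 2 ISO arrays, that of BXH-9/TyJ and 1 of AXB18/PgnJ at 5.58.

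**Figure D3:**
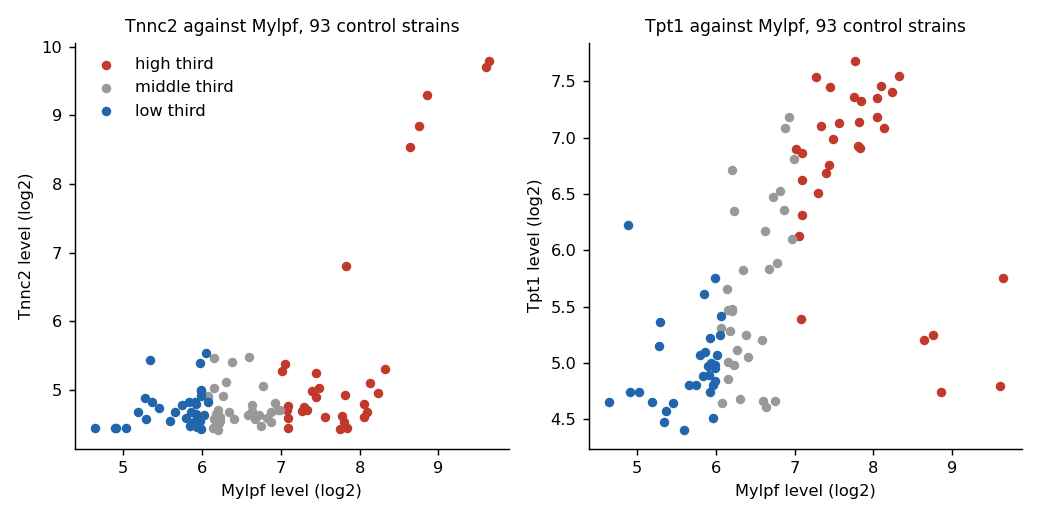
Tnnc2 (left) and Tpt1 (right) against Mylpf in 93 control strains (log2), each point a strain mean colored by group. The 6 strains with Tnnc2 at 6.81 or above stand over a flat band at 5.54 and below, and 5 of them have Tpt1 at 4.74 to 5.75 while most high strains have it above 6.

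The comparison of all 31 high with all 31 low strains, fitted by limma over 25696 probes without Mylpf, called 92 probes (0.358%) at an adjusted p-value under 0.05 and a log2 difference over 0.2. All 92 were higher in the high strains. No probe was called lower, and 707 of the 1916 probes with an unadjusted p-value under 0.05 were lower. The strains were sorted by a probe of the same arrays, so these p-values measure association with Mylpf only. The 6 strains did not carry the count: without them 112 probes were called (0.436%), 83 of them among the 92. Without the 5 strains of the highest Mylpf 108 were called (0.42%).

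No member of the 5 skeletal muscle lists was called in limma, against 0.358% of all probes. In the fast skeletal sarcomere list, 14 of 17 genes were measured and 13 tested beside Mylpf, with a median difference of 0.02, where the median over all probes was 0.00. Tnnc2 was 0.86 ± 0.30 (SE) higher (adjusted p-value = 0.407), Tnni2 0.66 ± 0.21 (adjusted p-value = 0.247). Tnnc2 was detected on 14 of 39 high and 2 of 31 low arrays. Tnnt3 was detected on 5 of 39 high and 0 of 31 low arrays, so no fold is given (adjusted p-value = 0.391). These were the 3 of the list with an unadjusted p-value under 0.05. Of the 11 genes of calcium handling and excitation, 1 passed that looser limit, Atp2a1, at 0.76 ± 0.31 (adjusted p-value = 0.523). Pvalb differed by 0.58 ± 0.38 (adjusted p-value = 0.791). Without the 6 strains the differences were 0.08 for Tnnc2, 0.02 for Atp2a1, -0.32 for Pvalb and 0.28 for Tnni2. With the Mylpf level as a regressor over all strains in place of the groups, these 5 genes were called. They were also called without BeadChips 10, 12, 13, 15 and 19 (9 high against 31 low strains), where 14.8% of all probes were called. In that limma fit Tnnc2 differed by 2.76 (adjusted p-value = 3.1e-05) and Pvalb by 3.04 (adjusted p-value = 0.000103). Those 9 high strains were all of BeadChip set 3, whereas 23 of the 31 low strains were of set 2. The 9 included all 6 strains of high Tnnc2. The 6 had been chosen by that level, so these values are no separate test.

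The other skeletal lists lay near 0. The 15 genes of fast skeletal metabolism had a median difference of 0.03, from -0.48 to 0.24, and 4 of them, Ampd1, Eno3, Pygm and Ldha, had an unadjusted p-value under 0.05. Of these, Eno3 and Ldha encode glycolytic enzymes and Pygm the glycogen phosphorylase of muscle. The 9 slow and embryonic sarcomere genes had a median of -0.03, with Acta1, the skeletal alpha-actin that the heart also makes, at -0.48 ± 0.24 (adjusted p-value = 0.669). The 17 myogenic regulators and junction genes had a median of 0.01, from -0.11 to 0.09. Myod1, a master regulator of myoblasts, was detected on no array of either group, and Myog, which drives their differentiation, differed by 0.01 ± 0.07 (adjusted p-value = 0.993).

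The 92 called probes were led by other genes. Tpt1, which encodes a growth-related calcium-binding protein, ran from 4.74 through 6.93 to 7.68 in high strains and from 4.40 through 4.89 to 6.22 in low strains. Of the 31 high strains, 24 lay above every low strain, and the difference was 1.72 ± 0.17 (SE, adjusted p-value = 8.61e-11). Atp5k, a subunit of the mitochondrial ATP synthase, ran from 4.52 through 6.69 to 7.53 against 4.50 through 4.86 to 5.67, with 25 high strains above every low strain. Its difference was 1.49 ± 0.18 (adjusted p-value = 2.43e-08).

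Cd36, the fatty acid transporter of the sarcolemma, was 1.44 ± 0.19 higher (adjusted p-value = 3.76e-07), with 18 high strains above every low strain. Acin1, a splicing-associated nuclear protein, was 1.34 ± 0.20 higher, Cox7b, a subunit of cytochrome c oxidase, 1.04 ± 0.17, Lmod2, which sets thin filament length in the heart, 1.04 ± 0.13, and Hspa5, the chaperone of the endoplasmic reticulum, 0.95 ± 0.14. Ndufb4 of complex I (0.77 ± 0.18) and Ndrg4 (0.69 ± 0.16) both had an adjusted p-value = 0.0175. With Nexn these are the 10 largest when each gene is read on its brightest probe and predicted genes are left out, and dimmer probes of other genes, given below, differed by more. Nexn, an actin-binding protein of the cardiac Z-disc, was detected on 25 of 39 high arrays and on 0 of 31 low arrays, so only a bound can be given there: its level was at least 1.33-fold higher in the high strains (adjusted p-value = 9.84e-07). Of the 31 low arrays, Atp5k was detected on 3, Lmod2 on 6, Tpt1 on 9, Hspa5 on 12 and Cd36 on 16. The sizes given for these genes therefore rest partly on low values at background.

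The called probes moved with the BeadChip as Mylpf did. Between BeadChips lay 37.4% to 93.9% of their variance among control arrays, with a median of 66.1%, against 41.6% for the median of all probes. Tpt1 had 90.4%, Atp5k 91.7% and Cd36 87.3%. On BeadChips 10, 12, 13, 15 and 19 Tpt1 was at 6.57 to 7.68 on control arrays, and on the others it was at 4.40 to 7.18. Without these 5 BeadChips 3813 probes were called (14.8%), 2058 higher (8.01%) and 1755 lower (6.83%), and 16 of the 92 were among them. Tpt1 then differed by 0.63 (adjusted p-value = 0.0155), and of these 10 genes, read on their brightest probes, it alone was called, with Atp5k at 0.26 (adjusted p-value = 0.252), Cd36 at 0.22 and Nexn at -0.01 (adjusted p-value = 0.971). The 9 high strains left without the 5 BeadChips were all of BeadChip set 3. Of the 31 low strains, 23 were of set 2, 2 of set 1 and 6 of set 3. Group and BeadChip set thus largely went together in that fit. With the BeadChip as a random block on single arrays 44 probes were called, 42 of them among the 92.

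Where a called gene had another, brighter probe on the array, that brighter probe was mostly not called. Of the 92 called probes, 47 had another probe for the same gene on the array. For 35 of these the other probe was the brighter one, and 34 of those 35 brighter probes were not called. Their differences ran from -0.40 to 0.91 with a median of -0.03, and the one that was called was that of Nexn. A missed call did not always mean a different size: H2-K1, a class I histocompatibility gene, gave 0.74 on the called and 0.70 on the brighter probe (adjusted p-value = 0.811), Cmtm7 0.51 and 0.34, and Clta, a clathrin light chain, 0.23 and 0.24. Mdh1, the cytosolic malate dehydrogenase, was 2.04 ± 0.25 higher on probe ILMN_2631021 (adjusted p-value = 3.37e-08) and differed by -0.06 ± 0.28 on its brightest probe (adjusted p-value = 0.979). Acadl, an acyl-CoA dehydrogenase, was 1.5 ± 0.17 higher on ILMN_2735084 and differed by -0.13 ± 0.08 on its brightest probe (adjusted p-value = 0.777).

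Suclg1 of the citric acid cycle gave 1.52 and -0.15, Sdhb of complex II 1.15 and -0.02, and Hadh of beta-oxidation 1.24 and -0.29 on the called and the brightest other probe. The called probes of Hadh, Suclg1, Acadl and Mdh1 were detected on 5, 7, 9 and 15 of the 31 low arrays. Atp5j, another ATP synthase subunit, was detected on 24 of 39 high and 0 of 31 low arrays on its called probe, a level at least 1.57-fold higher (adjusted p-value = 1e-08), and differed by 0.04 ± 0.09 on its brightest probe. Mylpf has no other probe on the array with which it could be compared.

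**Figure D4:**
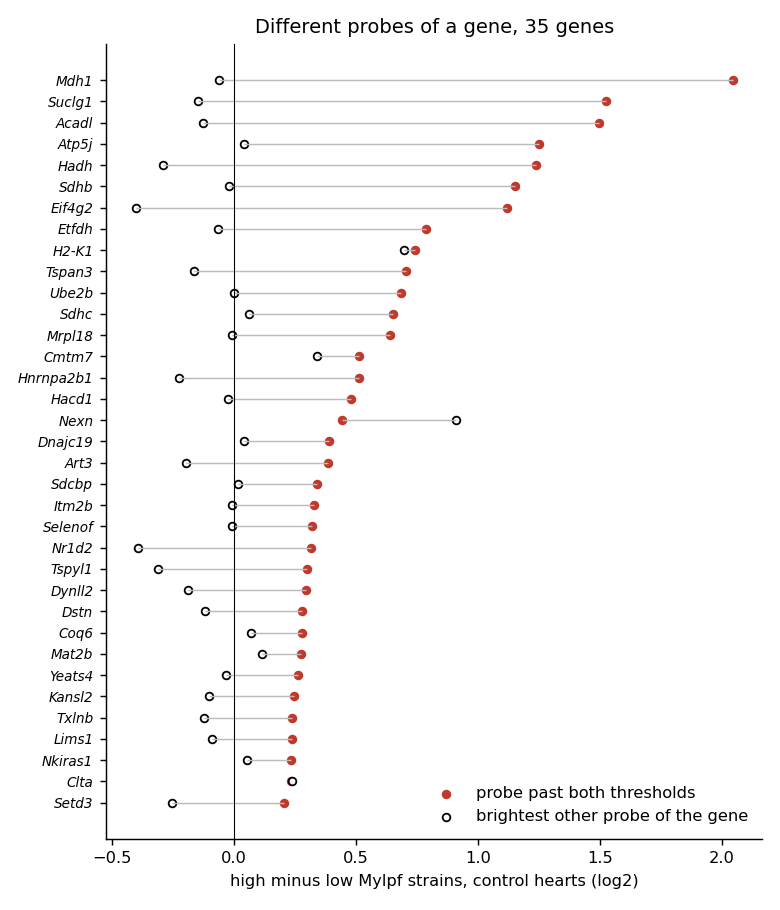
High minus low difference in control hearts (log2) for 35 genes with a called probe (filled) and a brighter other probe (open), ordered by the called probe. Most open points lie near 0, between -0.40 and 0.91, whatever the called probe of the gene did.

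Among the genes most like Mylpf over the control strains, leaving out the 6 strains lowered the likeness of some and raised that of others. With each gene read on its brightest probe and unnamed probes and predicted genes left out, the 15 genes of highest Pearson r with Mylpf over 93 strains were Tnnc2 (0.60), Rhoq (0.59), Tnnt3 (0.59), Tpt1 (0.59), Hsp90aa1 (0.56), Perp (0.54), Nexn (0.54), Atp2a1 (0.53), Fabp4 (0.52), Polr2m (0.50), Atp5k (0.50), Rad21 (0.50), Tnni2 (0.50), Lmod2 (0.48) and Dpcd (0.46). Dimmer probes of other genes lay among them, such as those of Atp5j (0.59), Acadl (0.56), Mdh1 (0.54) and Actn3 (0.51). These are descriptions over strains that share BeadChips. Without the 6 strains r fell to 0.14 for Tnnc2, 0.25 for Tnnt3, 0.14 for Tnni2 and -0.02 for Atp2a1. It rose to 0.83 for Tpt1, 0.80 for Nexn, 0.77 for Perp, 0.77 for Fabp4 and 0.83 for Atp5k. It stayed at 0.56 for Hsp90aa1 and was 0.31 for Dpcd. The 6 strains were chosen by their high Tnnc2, so its fall was fixed by that choice. The falls of genes high in the same strains went with it, and these values are no separate test.

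ISO hearts of the same strains were not used for the sorting. Mylpf ran there from 4.61 through 7.17 to 8.21 in the 29 high strains with ISO arrays and from 4.76 through 5.72 to 6.77 in the 28 low strains. The groups overlapped, and 19 of the 29 lay above every low strain. The means were 6.96 ± 0.92 (SD, n = 29) and 5.68 ± 0.44 (SD, n = 28), a difference of 1.28 ± 0.19 (SE, adjusted p-value = 1.65e-05 over 25697 probes, limma). Within BeadChip set 2 (13 high against 23 low strains) the difference was 2.00 (adjusted p-value = 8.22e-14), within set 1 (8 against 2) it was 1.11 (adjusted p-value = 1) and within set 3 (8 against 3) it was -0.30 (adjusted p-value = 0.864). No BeadChip of set 2 held arrays of both high and low strains, so group and BeadChip cannot be told apart in that set. With the BeadChip as a fixed block, which rests on 3 arrays of 1 BeadChip, the difference was -0.23. Without BeadChips 10, 12, 13, 15 and 19 it was 0.51 (adjusted p-value = 0.0862), and the high strains left in that fit were all of set 3.

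The control and ISO arrays of a strain shared a BeadChip in all 87 strains with both, and in 75 of them every BeadChip was shared. Over these 87 strains the control and ISO levels of Mylpf had a Pearson r of 0.58 and a Spearman rho of 0.63 (permutation test, adjusted p-value = 4.7e-05 for r and 3.5e-05 for rho over the 14 probes tested, raw p = 1e-05 for both, the smallest that 100000 permutations give). Without BXD-5/TyJ and BXH-9/TyJ, the 2 strains farthest from the median, r was 0.68. It was 0.60 within BeadChip set 1 (24 strains), 0.93 within set 2 (48 strains) and -0.16 within set 3 (15 strains). With each array taken as its deviation from the mean of its BeadChip and condition, r was 0.05 and rho 0.20 (permutation p = 0.63 and 0.069). The relation was not detected within BeadChips, and strain and BeadChip cannot be told apart in the pooled value.

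**Figure D5:**
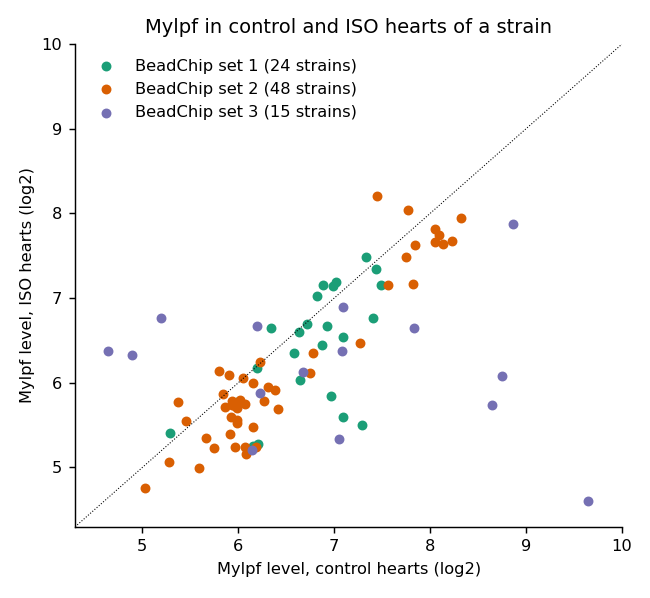
Mylpf level (log2) in ISO hearts against control hearts of 87 strains, each point a strain, colored by BeadChip set. The dotted line is equality. Sets 1 and 2 run along the line (r = 0.60 and 0.93), and set 3 does not (r = -0.16).

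Of the other genes of the fast sarcomere list, Tnnc2 had an r of 0.40 between control and ISO hearts (permutation test, adjusted p-value = 0.021) but a rho of 0.02. Without BXD-5/TyJ and BXH-9/TyJ r was 0.18. Of these 2 strains only BXH-9/TyJ was high in both conditions (9.29 in control and 7.33 in ISO hearts), whereas BXD-5/TyJ was at 9.79 and 4.41. Tnni2 had an r of 0.31 (adjusted p-value = 0.0088) and a rho of 0.50, and Tnnt3 an r of 0.13 (adjusted p-value = 0.26). Myl1, a light chain also made in the atria, had an r of 0.83 and Mybpc2, the fast myosin-binding protein C, of 0.62, both with an adjusted p-value = 4.7e-05. Strain and BeadChip cannot be told apart in these values either. On deviations from the BeadChip mean r was 0.06 for Tnnc2 (permutation p = 0.54). Tnni2, Tnnt3, Myl1 and Mybpc2 were not examined that way. Neither Myl1 (0.19 ± 0.36) nor Mybpc2 (-0.17) had a called difference between high and low strains in control hearts.

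In ISO hearts 686 probes were called between the high and low strains (2.67%), 414 higher (1.61%) and 272 lower (1.06%), and 65 of them were also called in control hearts in the same direction. Apart from Mylpf no member of the fast skeletal lists was called, and Tnnc2 differed by 0.22 ± 0.11 (adjusted p-value = 0.238), Tnni2 by 0.10 ± 0.16 and Atp2a1 by 0.00 ± 0.13. On the brightest probe of each gene, the largest were again Atp5k (1.43 ± 0.20), Tpt1 (1.24 ± 0.19), Acin1 (1.24 ± 0.23), Cd36 (1.21 ± 0.20), Cox7b (1.0 ± 0.17) and Lmod2 (0.90 ± 0.14), with Nexn at least 1.33-fold higher, Prf1 (0.88 ± 0.18), which encodes the perforin of cytotoxic lymphocytes, and Tma7 (0.79 ± 0.16). Of the 29 low ISO arrays, Atp5k was detected on 6, Lmod2 on 8, Tpt1 and Tma7 on 10 each and Cd36 on 11. Among the lowest differences were Ppp1cb, a catalytic subunit of protein phosphatase 1 (-0.98 ± 0.28), Nr1d2, a repressor of the circadian clock (-0.89 ± 0.23), and Ddah2 (-0.80 ± 0.19). In control hearts this Nr1d2 probe was not called (-0.39, adjusted p-value = 0.713 in limma). A dimmer Nr1d2 probe, detected there on 7 of 39 high and 0 of 31 low arrays, was called higher. Further low differences were those of Pik3ca (-0.79 ± 0.17), Usp9x (-0.75 ± 0.16), Gjc1 (-0.72 ± 0.18), Calm2 (-0.70 ± 0.17), Bzw1 (-0.69 ± 0.15), Krit1 (-0.69 ± 0.16) and Trmt10c (-0.66 ± 0.17). Of the 19 genes named here, 10 lost the call with the BeadChip as a random block on single arrays, namely Prf1 (adjusted p-value = 0.0879) and every one of the lower genes but Pik3ca (adjusted p-value = 0.0462). With the BeadChip set as a covariate 9 lost it, every one of the lower genes but Bzw1 (-0.48, adjusted p-value = 0.0305).

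The ISO count rested on few strains and on the scaling. Without the 6 strains it was 164, and with the BeadChip set as a covariate 87. Leaving out 1 strain at a time moved it by over 1.5 times for 13 strains. It was 369 without AXB-20/PgnJ and lay between 391 and 454 without BXD48/RwwJ, BTBRT<+>tf/J, BXD44/RwwJ, BALB/cByJ, BXH-9/TyJ, CXB-12/HiAJ, BXD43/RwwJ, BXD45/RwwJ or BXD-20/TyJ, and it was 1035 without AKR/J, 1196 without A/J and 1349 without BXD79/RwwJ. Ppp1cb kept its call in 24 of the 57 fits that leave out a strain. With median scaling in place of quantile normalization 208 were higher and 1005 lower.

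Markers of other tissues and cell types were compared between all high and all low strains to describe the content of the samples. Tnnc2, far higher in 6 of the 31 high strains, was not called in that comparison. Content confined to a few strains could therefore pass without a call. Over all probes 0.358% were called in control hearts and 1916 of 25696 had an unadjusted p-value under 0.05, and no call in a list as short as those below is near that share. Of the 23 ventricular cardiomyocyte genes none was called (median -0.05, 3 with an unadjusted p-value under 0.05), and Myl2 differed by -0.06 ± 0.03 and Myh6 by -0.05 ± 0.03. Myl2 reached 15.22 in both groups, the highest value of the normalized scale, so a difference in it could go unseen. The 15 atrial genes had a median of -0.09 and none was called or had an unadjusted p-value under 0.05. Sln, the atrial inhibitor of the calcium pump, ran from 4.43 to 13.88 in high strains, with as wide a spread among low strains (4.37 to 13.24). The lists of esophagus (12 genes), thyroid and trachea (9), lung (9), thymus (11) and liver (9) gave no called gene, and 2 lung genes and 1 liver gene had an unadjusted p-value under 0.05. Their strain means overlapped between the groups, as for the esophagus list, at 4.61 to 4.87 in high and 4.6 to 4.84 in low strains. None of the 16 macrophage genes was called or had an unadjusted p-value under 0.05.

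Fabp4, the fatty acid-binding protein of adipocytes and capillary endothelium, was the only gene called among the 14 white fat genes and the 13 endothelial genes in control hearts (0.358% of all probes), detected on 22 of 39 high and 0 of 31 low arrays and at least 1.03-fold higher (adjusted p-value = 1.68e-05). It was low, at 4.45 to 4.75, in the 6 strains of high Tnnc2. In ISO hearts, where 2.67% of all probes were called, Fabp4 was called again with Aqp7 (0.49 ± 0.11), the glycerol channel of adipocytes, and Kdr (0.40 ± 0.12), a receptor for VEGF, while Hand2 (-0.51 ± 0.15), Dpt (-0.55 ± 0.15), Pmp22 (-0.43 ± 0.12) and Tpm3 (-0.47 ± 0.14) were called lower. The 23 oxidative phosphorylation genes had a median difference of 0.01 in control hearts with none called, and the 18 fatty acid oxidation genes -0.04 with none called, against the same 0.358%, each gene read on its brightest probe. At an unadjusted p-value under 0.05 there were 5 and 2 genes.

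Classical and RI strains were compared by an interaction term in control hearts (4 high and 12 low classical strains, 27 high and 19 low RI strains). No probe passed an adjusted p-value of 0.05 in limma, and 383 had an unadjusted p-value under 0.05. With 4 strains in the smallest cell, a difference between strain types may have gone undetected.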

How the data were processed

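LV RNA was measured on 208 single-color arrays. Probe intensity, as deposited, was the uncorrected output of GenomeStudio 2010.3. A detection p-value, also deposited, ranks a probe's signal within the array's negative controls. For the deposited log2 scale the authors applied neqc of limma, that is, background correction, quantile normalization and log2, with no centering. The authors dropped probes over known SNPs; the list of those probes was not used here, so every gene probe was kept and a probe may bind strains unequally.

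The deposited log2 values were analyzed with limma 3.58.1 in R 4.3.3 (version 1.17.8 of data.table; figures with Python and matplotlib). neqc run here (offset 16) on 25697 gene probes, without the 829 control probes, differed from them by a median of 0.00057, and each column matched its own array best. Column medians were 4.99 to 5.01. Between 38.1% and 49.6% of probes were detected per control array. A single gene symbol was given for 23978 probes and no symbol for 1719. Precision is limited by how many arrays were run.

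Strain and treatment came from the labels. Arrays of a strain and condition were averaged, strains were tested by lmFit and eBayes with Benjamini-Hochberg adjustment over all probes, and a call needed an adjusted p-value under 0.05 and a log2 difference over 0.2. Nothing in the labels says that the 2 arrays of a strain came from separate animals, and pools hide the spread between mice, so p-values measure the spread between strain means. On simulated data of this size (25696 probes, 31 against 31 strains) 64.2% of differences of 0.25, 83.6% of 0.5 and 100% of 1 were recovered, with 6 false calls. The simulated noise was independent between strains and had no BeadChip differences. These rates therefore check the fit only and do not hold for the data, where BeadChip and group went together.

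The strains, gene lists and tests were chosen with earlier results of these data known. Named genes were the 10 largest and 10 lowest called differences in each condition, 1 probe a gene (the one of the highest mean), without predicted genes and with at least 75% of high strains past the low median, the 15 genes most like Mylpf, up to 4 called members of a list or the 2 of smallest p where none was called, and any member of the skeletal lists. The 6 strains of high Tnnc2 and the genes Mdh1, Acadl, Suclg1, Sdhb, Hadh, Atp5j, Lgals3, Myl2 and Sln were chosen after values were seen. A list was described by the brightest probe of each gene. Where a probe was detected on no array of a group, the fold is a lower bound, with the dim group set to the higher of its own value and the lowest value among detected probes of each array. Alternatives changed the normalization, the dim probe filter, the strains, the BeadChips and the covariates.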

Additional observations from a re-analysis of the deposited data

Results flagged for a closer look

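Within groups of 4 to 10 control strains or arrays, 87 groups were examined for a sample far from the others for Mylpf, Tnnc2 and Tpt1, and 8 held one, where chance gives about 1 in 20. Tnnc2 was at 9.71 in BXD69/RwwJ among 9 high BXD/RwwJ strains, the next at 5.24, and the same strain was lowest for Tpt1 at 4.79, where the median was 7.33. Tnnc2 was at 6.81 in CXBH, both among 4 high CXB strains (next 4.96) and among the 4 control arrays of BeadChip 26 (next 4.71).

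Smaller gaps were seen for Tnnc2 at 5.54 in BXD73/RwwJ among 10 low BXD/RwwJ strains and at 4.98 in BXA14/PgnJ on BeadChip 12, for Tpt1 at 5.42 in BXA-7/PgnJ on BeadChip 11, and for Mylpf at 6.39 in BXA14/PgnJ on BeadChip 3, below the other 3 arrays. No array of a middle strain had Tnnc2 above 5.54, the highest low control array.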

How the results depend on the processing

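In control hearts the count of called probes stayed within 1.5 times of 92 under neqc run here, median scaling, the filter on dim probes, a split of all strains at the median, the Mylpf level as a regressor, all 3 groups in 1 fit, the set or family as a covariate, the first array of each strain only, no fold limit and each strain left out in turn (lowest 85). It was 36 with no background correction, 0 with the top and bottom 15 strains (2058 with an unadjusted p-value under 0.05), 44 and 157 with the BeadChip as a random and a fixed block, 247, 154 and 0 within BeadChip sets 1, 2 and 3 (1724 unadjusted in set 3), 47 in RI strains, 28 in classical strains and 3813 without BeadChips 10, 12, 13, 15 and 19. The subsets also held fewer strains. The fixed block rested on 5 arrays of 2 BeadChips. Without BeadChips 10, 12, 13, 15 and 19, the 9 high strains were all of set 3 and 23 of the 31 low strains of set 2. The cause of these changes was not tested.

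In ISO hearts the count of 686 became 1213 with median scaling (208 higher and 1005 lower, against 414 and 272), 1045 with detected probes only, 1083 with all strains split at the median, 2 with 15 strains a side (2925 unadjusted), 170 with the regressor, 334 with 3 groups in 1 fit, 87 with the set and 395 with the family as a covariate, 41 with the random block, 0, 145 and 21 within sets 1 to 3 (661 unadjusted in set 1), 123 in RI and 26 in classical strains. It was 165 without the 5 strains of the highest Mylpf, 164 without the 6 of high Tnnc2, 6993 without BeadChips 10, 12, 13, 15 and 19, 134 without BeadChips 23, 24 and 26, and 369 to 1349 with each strain left out. Mylpf in ISO hearts differed by 1.23 to 1.36 with each strain left out, 1.43 with 15 strains a side (adjusted p-value = 0.0718), 1.27 in classical strains (adjusted p-value = 0.144), 1.11 in set 1, -0.30 in set 3, -0.23 with the fixed block and 0.51 without the 5 BeadChips. Its correlation between conditions was -0.16 in set 3 and 0.05 on deviations from the BeadChip mean.

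Of the values of named genes under the alternatives, 549 kept direction and side of the threshold, 207 lost the call, 14 gained one and 33 changed sign. The fixed block rests on 5 arrays of 2 BeadChips in control hearts and on 3 arrays of 1 BeadChip in ISO hearts. With it the changes of sign were, in control hearts, Tpt1 (-0.33), Acin1 (-0.59), Cox7b (-0.04) and Nexn (-0.13). In ISO hearts they were Tpt1 (-0.24), Acin1 (-1.84), Lmod2 (-0.61), Prf1 (-0.45), Ddah2 (1.13) and Calm2 (0.01). Within set 3 they were Lmod2 in control hearts (-0.10) and, in ISO hearts, Atp5k (-0.61), Tpt1 (-0.78), Acin1 (-0.43), Cd36 (-0.71), Cox7b (-0.54), Lmod2 (-0.36) and Tma7 (-0.50), and within set 1 Ddah2 (0.57) and Pik3ca (0.30). Nexn was at -0.01 without the 5 BeadChips. Pvalb in control hearts was at -0.02 with the family, -0.39 in set 1, -0.59 in set 2, -0.23 in classical strains, -0.21 without the 5 strains, -0.32 without the 6 and -0.34 without BeadChips 23, 24 and 26. Actn3 was at 0.00 in set 1, -0.02 in set 2, -0.08 in classical strains, and -0.04 both without the 6 strains and without those 3 BeadChips. The fixed block, the 6 strains and the omitted BeadChips were chosen after seeing the data. No paired analysis was possible because the high and low groups are different strains, and the labels give no number that ties a strain of one to a strain of the other.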
